A study of Mus musculus with 17 samples.

Results

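The genes described here encode enzymes and a transporter that let the kidney make glucose. They are Pcx, Pck2, Pck1, Fbp1, Slc37a4 and G6pc of gluconeogenesis, with Khk, which starts the breakdown of fructose. They were chosen by gene symbol, and 7 of 7 were found among the 42794 complete gene lines of the deposited expression table.

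RNA of mouse kidney was sequenced in 17 libraries from 3 groups, in a series on glucagon and diabetic kidney disease. The 4 NC libraries carry the genotype WT. The 6 DKD_Vehicle libraries carry the genotype Ctr shRNA, so the title and the genotype label name different controls. The 7 DKD_shRNA libraries carry the genotype Gcgr shRNA, a hairpin directed at the glucagon receptor that, per the series' design text, was to lower it in proximal tubule cells only. The strain and age of the mice, the means of inducing disease and the route of the hairpin were not given in the sources used here. Each library goes by its group and title number. Whether every library stands for a separate mouse is not labelled, and the p-values therefore cover only the scatter between libraries, which may be technical.

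Proximal tubule cells are, beside hepatocytes, the main cells that release glucose into the blood. Pyruvate carboxylase and the phosphoenolpyruvate carboxykinases lift pyruvate to phosphoenolpyruvate, fructose-1,6-bisphosphatase removes a phosphate from fructose bisphosphate, and glucose-6-phosphatase, fed by its transporter in the membrane of the endoplasmic reticulum, frees glucose. The kidney draws much of its carbon from glutamine, whose breakdown also yields ammonia, and from lactate, while the liver relies more on alanine and lactate. In the liver glucagon raises cyclic AMP and thereby transcription of Pck1 and G6pc, and insulin lowers it.

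Depth, as reads recovered from the values, lay between 13997657 and 17107876 per library, with 12183 to 12919 genes at 1 or more FPKM (fragments per kilobase of gene, scaled to library size). Gcgr, the target of the hairpin, was at 20.8 ± 2.42 FPKM in NC (SD, n = 4), 9.74 ± 2.14 in DKD_Vehicle (n = 6) and 13.02 ± 1.70 in the libraries labelled DKD_shRNA (n = 7). It was thus higher, not lower, in the libraries labelled DKD_shRNA than in DKD_Vehicle. The difference was 0.40 on the log2 scale (exact two-sided permutation test, p = 0.00641), not in the direction the label names. The hairpin was to act in proximal tubule cells only, and bulk kidney RNA cannot show whether Gcgr fell in those cells. Library DKD_Vehicle 20 stood apart, with fat cell markers summing to 657.6 FPKM against at most 44.2 elsewhere and urothelium markers to 177.7 against at most 11.1. Its mean log2 level over 24 proximal tubule markers, 7.09, was the lowest of all. Some results in which this library lay at an end of its group are given with and without it. Without it the difference of Gcgr between the DKD groups was 0.28 (exact two-sided permutation test, p = 0.0164).

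The promoters of Pck1 and G6pc are printed because these are the members known as cyclic AMP responders in the liver. A further reason is that, as given further on, no relation was seen between their levels here. RefSeq (GRCm38.p6) held start sites for 7 of the 7 members, and windows from 250 bases before to 50 bases after each start were searched on both strands for 5 motifs. The full cyclic AMP response element TGACGTCA was in none of the members' windows and in 1.79% of all 32851 promoters of that length. The variant TTACGTCA was in the window of Pck1 alone among the members, 93 bases before the RefSeq start, and in 0.499% of all promoters. The variant TTACGTAA was in the window of G6pc alone, 162 bases before its RefSeq start, and in 0.119% of all promoters. The 225 bases upstream of Pck1 (GRCm38, plus strand, chr2:173152823-173153047) and 30 bases of the G6pc promoter (plus strand, chr11:101367543-101367572) read as follows, with the variant element in capitals. The last 12 of the 30 bases, among them the last base of the element, lie inside the deposited gene, which begins upstream of the RefSeq start.
Pck1: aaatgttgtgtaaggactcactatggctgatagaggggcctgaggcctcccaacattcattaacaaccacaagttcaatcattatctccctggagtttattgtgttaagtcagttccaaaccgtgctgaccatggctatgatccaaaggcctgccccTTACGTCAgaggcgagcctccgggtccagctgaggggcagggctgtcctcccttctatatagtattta
G6pc: gttttgctattTTACGTAAatcaccctgaa
CACGTG, the core of the element through which carbohydrate acts on transcription, was found in windows of Khk and Pcx and in 7.15% of all promoters. TATAAA was in windows of G6pc and Slc37a4 and in 13.6% of all promoters. Such matches describe letters, and binding was not measured in these libraries.

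By FPKM, which is per length, Pck1 was the most abundant member, followed by Fbp1, Khk, G6pc, Pcx, Slc37a4 and Pck2. Among the 13279 genes tested, Pck1 ranked 14 by its mean over all libraries, Fbp1 41, Khk 91, G6pc 210, Pcx 242, Slc37a4 381 and Pck2 8824. Each neighbour in that order was the higher one in 17 of 17 libraries, except that G6pc exceeded Pcx in 11 of 17, with a ratio of 0.57 to 2.33. Together the members made up 0.594% to 1.13% of all FPKM in a library. The mitochondrial form of the carboxykinase was therefore a minor transcript in these kidneys beside the cytosolic form.

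**Figure D1:**
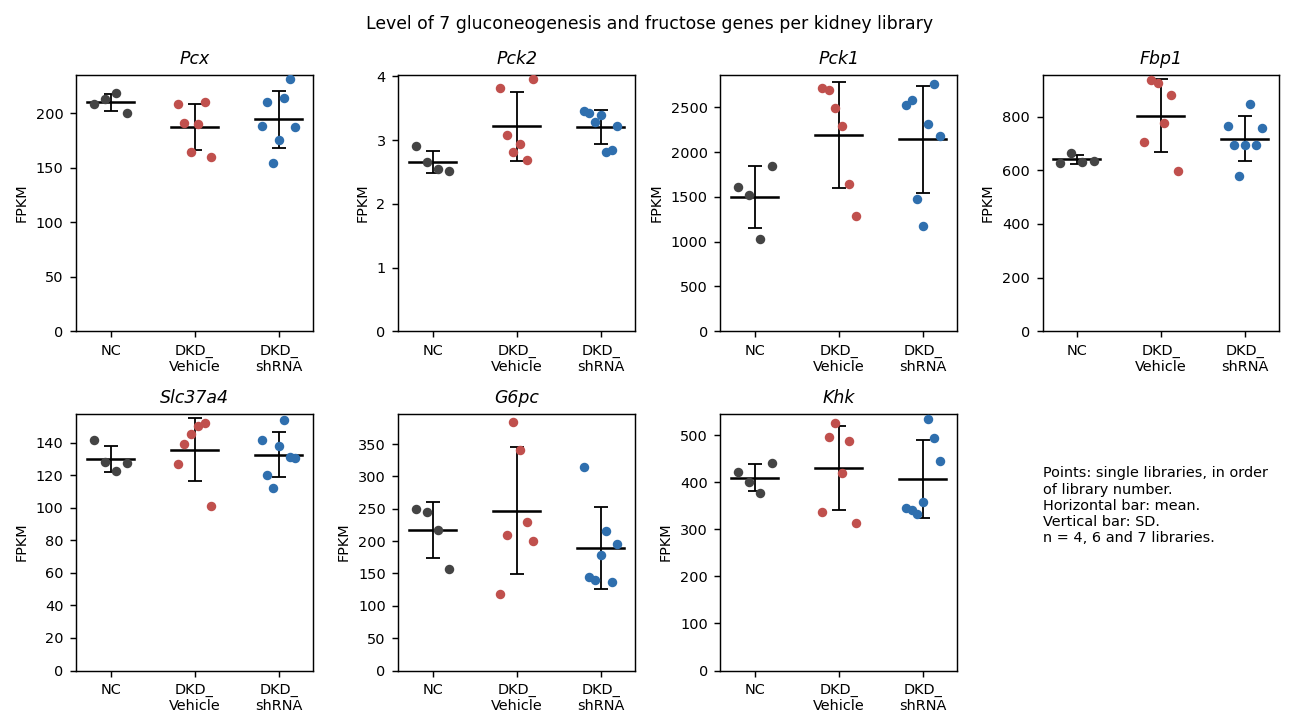
Level of each member in FPKM (vertical axis, from 0) in the 4 NC, 6 DKD_Vehicle and 7 DKD_shRNA libraries. Points are single libraries, horizontal bars means and vertical bars SD. Pck1 and G6pc spread widely within each group, from 1028 to 2764 and from 119 to 384 FPKM over all libraries, and the groups overlap in every panel.

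Pcx encodes pyruvate carboxylase, which makes oxaloacetate from pyruvate in mitochondria (ENSMUSG00000024892, GRCm38 chr19:4510472-4621752, plus strand). It was at 208, 213, 218 and 199.9 FPKM in NC 37, 38, 39 and 41. In DKD_Vehicle it ranged from 159.7 (library 20) through a median of 190.4 to 210.2 (library 19), and in the libraries labelled DKD_shRNA from 153.8 (library 29) through 187.9 to 231.5 (library 34). NC was narrow and lay within the range of the libraries labelled DKD_shRNA. The mean of DKD_Vehicle, 187 ± 21.4, differed from that of NC, 210 ± 7.74, by -0.17 ± 0.11 (SE) on the log2(FPKM + 1) scale, with adjusted p = 0.368 (limma, Benjamini-Hochberg over all genes tested). In bulk tissue, fewer cells of a type and less RNA per cell cannot be told apart, for this and all later values. Lrfn4 lies inside Pcx on the other strand, and the use of strand in counting was not given in the sources used here.

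Pck2, the mitochondrial phosphoenolpyruvate carboxykinase (ENSMUSG00000040618, chr14:55540266-55551242, plus strand), was at 2.90, 2.65, 2.55 and 2.51 FPKM in NC 37, 38, 39 and 41, from 302 to 324 reads. DKD_Vehicle ran from 2.69 (library 19) through a median of 3.00 to 3.96 (library 20), and the libraries labelled DKD_shRNA from 2.82 (library 32) through 3.29 to 3.46 (library 13). Both DKD groups lay mostly above NC, with some overlap. The difference from NC was 0.20 ± 0.086 for DKD_Vehicle (adjusted p = 0.174) and 0.20 ± 0.084 for the libraries labelled DKD_shRNA (adjusted p = 0.239), both by limma. Without DKD_Vehicle 20 the mean of DKD_Vehicle was 3.07 ± 0.44 FPKM in place of 3.22 ± 0.54. An antisense gene, Gm10876, overlaps Pck2. Its deposited length of 7806 bases is 1.69 times that of its longest coding transcript, with which NC would average 4.48 in place of 2.65 FPKM.

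Pck1, the cytosolic phosphoenolpyruvate carboxykinase and a rate-setting step of renal glucose output (ENSMUSG00000027513, chr2:173153048-173159273, plus strand), was at 1611, 1523, 1028 and 1850 FPKM in NC 37, 38, 39 and 41. In DKD_Vehicle 1, 4, 6 and 8 it was at 2721, 2695, 2491 and 2290, but in libraries 19 and 20 at 1644 and 1285. The libraries labelled DKD_shRNA held 2532, 2583, 2312, 2764 and 2180 FPKM in numbers 13, 15, 32, 34 and 35, but 1473 and 1177 in numbers 29 and 31. In each DKD group most libraries were above every NC library, and 2 libraries of each were inside its range. The group means were 1503 ± 345, 2188 ± 593 and 2146 ± 597 FPKM.

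The difference of Pck1 between DKD_Vehicle and NC was 0.52 ± 0.26 on the log2 scale, a factor of 1.44, with a 95% interval of -0.03 to 1.08 and adjusted p = 0.244 (limma). Without DKD_Vehicle 20 it was 0.66, with adjusted p = 0.105, and over all 28 alternatives the adjusted p lay between 0.0506 and 0.547. The libraries labelled DKD_shRNA differed from NC by 0.49 ± 0.26 (adjusted p = 0.361) and from DKD_Vehicle by -0.03, with an interval of -0.51 to 0.44. That interval leaves room for a change of Pck1 in either direction between the DKD groups.

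Fbp1, fructose-1,6-bisphosphatase (ENSMUSG00000069805, chr13:62864753-62888282, minus strand), was tightly held in NC, at 628, 665, 633 and 636 FPKM in libraries 37, 38, 39 and 41. In DKD_Vehicle 1, 4, 6, 8 and 19 it was at 705, 936, 927, 778 and 880, all above every NC library, whereas DKD_Vehicle 20 was at 598, below all of them. The libraries labelled DKD_shRNA ran from 578 (library 29) through a median of 694 to 846 (library 32), and 6 of the 7 exceeded every NC library. The means were 640 ± 16.5, 804 ± 135 and 718 ± 83.2 FPKM.

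The difference of Fbp1 between DKD_Vehicle and NC was 0.31 ± 0.13, a factor of 1.24, with a 95% interval of 0.05 to 0.57, and did not pass the threshold of 0.05 (limma, adjusted p = 0.141). It did pass without DKD_Vehicle 20, at 0.39 (adjusted p = 0.0344), a setting in which 4.16% of all genes were called higher. It also passed when libraries were weighted by their scatter, at 0.33 (adjusted p = 0.0211; 7.99% of genes called higher), and with limma voom on recovered reads, at 0.33 (adjusted p = 0.0320; 4.04% called higher). Over 28 alternatives the adjusted p ran from 0.0211 to 0.340 and the difference was above 0 in each. The libraries labelled DKD_shRNA were 0.15 below DKD_Vehicle (-0.15 ± 0.11, adjusted p = 0.805) and 0.16 ± 0.12 above NC (adjusted p = 0.555), neither of which passed.

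Slc37a4, the transporter that carries glucose-6-phosphate to its phosphatase (ENSMUSG00000032114, chr9:44396852-44402968, plus strand), varied little. It was at 141.9, 128.1, 122.7 and 127.9 FPKM in NC 37, 38, 39 and 41. DKD_Vehicle ran from 101.0 (library 20) through a median of 142.4 to 152.2 (library 19), and the libraries labelled DKD_shRNA from 112.5 (library 29) through 131.7 to 154.1 (library 32). The groups lay over each other, with differences of 0.05, -0.03 and 0.02 in the 3 comparisons and adjusted p between 0.828 and 0.970 (limma). The microRNA gene Mir7085 lies within it on the same strand.

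G6pc, the catalytic subunit of glucose-6-phosphatase (ENSMUSG00000078650, chr11:101367561-101377903, plus strand), was the most variable member. It was at 249.1, 245.6, 216.9 and 156.7 FPKM in NC 37, 38, 39 and 41. In DKD_Vehicle 1, 4, 6, 8, 19 and 20 it was at 118.6, 209, 384, 341, 229 and 200.6, so this group held both the lowest and the highest value of all libraries. Of those labelled DKD_shRNA it was at 315 in number 13 and between 137.1 and 215 in the other 6. The 3 groups overlapped, and the group means were 217 ± 42.7, 247 ± 97.9 and 189 ± 63.1 FPKM.

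The largest difference for G6pc was that of the libraries labelled DKD_shRNA from DKD_Vehicle, -0.34 ± 0.24 with a 95% interval of -0.86 to 0.18 (limma, adjusted p = 0.810). Leaving out single libraries moved it from -0.53 to -0.19. The difference of DKD_Vehicle from NC was 0.11 ± 0.28 (adjusted p = 0.856), and it turned to the other sign without NC 41, DKD_Vehicle 6 or DKD_Vehicle 8 (-0.04 at the lowest). Its relatives were lower: G6pc3, the widely expressed form, at 25.7 to 35.1 FPKM, and G6pc2, the islet form, at 0 to 0.208 FPKM from 0 to 6 reads per library. Fbp2, the muscle form of the bisphosphatase, was at 6.43 to 14.95 FPKM. None of these passed in any comparison, G6pc2 being too low to test.

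Khk, ketohexokinase, which phosphorylates fructose without feedback by energy state (ENSMUSG00000029162, chr5:30921431-30931248, plus strand), was at 422, 399.8, 376 and 442 FPKM in NC 37, 38, 39 and 41. DKD_Vehicle ran from 315 (library 20) through a median of 454 to 527 (library 6). Among those labelled DKD_shRNA it was at 333 to 359 in numbers 13, 15, 29 and 31 and at 446, 493 and 535 in numbers 35, 34 and 32. All NC libraries lay between these values, and of DKD_Vehicle only library 8, at 419, was inside the range of NC. The means were close, at 410 ± 28.3, 430 ± 88.7 and 407 ± 82.7 FPKM. The differences were 0.04, -0.07 and -0.03 in the 3 comparisons, with adjusted p between 0.902 and 0.945 (limma).

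Across the members, 0 of 7 passed in DKD_Vehicle against NC, where 7.49% of all 13279 genes did (limma, adjusted p under 0.05). At an unadjusted p under 0.05 there were 2 of 7, Fbp1 and Pck2, against 23.4% of all genes. With limma voom 1 of 7 passed, Fbp1, where 4.04% of all genes were called higher. The members' median difference was 0.11, beside 0.01 over all genes, and 6 of 7 were above 0, beside 51.5% of all genes. In the libraries labelled DKD_shRNA against DKD_Vehicle 0 of 7 passed, as did 0% of all genes, and at an unadjusted p 0 of 7, against 7.32% of all genes. The members' median there was -0.03, beside -0.004 over all genes, and 2 of 7 were above 0, beside 48.5% of all genes. In the libraries labelled DKD_shRNA against NC 0 of 7 passed, against 2.02% of all genes, and 1 of 7, Pck2, at an unadjusted p, against 16.2%. Here 4 of 7 were above 0, beside 48.8% of all genes. With limma voom the last 2 comparisons also had 0 of 7. All comparisons share groups pairwise, so their values are not independent.

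**Figure D2:**
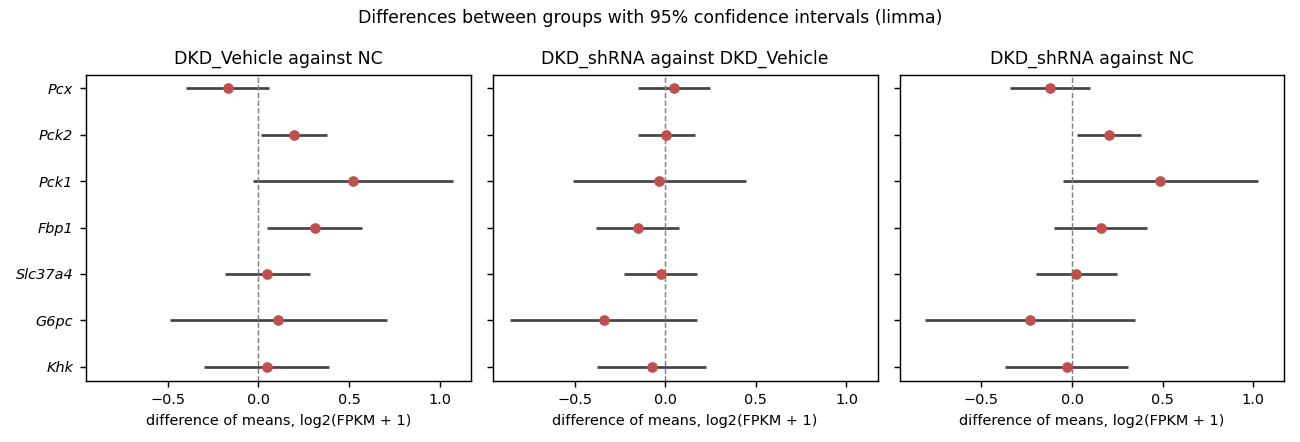
Difference of group means on the log2(FPKM + 1) scale (horizontal axis) for each member in the 3 comparisons, with 95% confidence intervals from limma. The intervals of Fbp1 and Pck2 in DKD_Vehicle against NC, and of Pck2 in DKD_shRNA against NC, lie above 0 before adjustment, and those of Pck1 and G6pc are the widest.

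Within groups, Pck1 and G6pc scattered far more than the other members. The SD of their log2 level around the group means was 0.44 and 0.48, larger than in 91.5% and 93.4% of the 528 genes with a mean of at least 100 FPKM, whose median was 0.21. Khk was at 0.27, Fbp1 at 0.19, Slc37a4 at 0.17, Pcx at 0.16 and Pck2 at 0.13. No relation was seen between the scatter of Pck1 and that of G6pc. The correlation of their deviations from the group means was r = 0.03 (rho = -0.23, permutation p = 0.918 and 0.399, n = 17 libraries). So few libraries cannot show that there is none. DKD_Vehicle 1 had the second-highest Pck1 (2721 FPKM) and the lowest G6pc (118.6).

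The ratio of Pck1 to G6pc accordingly ranged from 4.74 in NC 39 to 22.9 in DKD_Vehicle 1. In NC it was 6.47, 6.20, 4.74 and 11.8 in libraries 37, 38, 39 and 41. In DKD_Vehicle it was 22.9 and 12.9 in libraries 1 and 4 but 6.40 to 7.18 in the other 4. Among those labelled DKD_shRNA it was 20.2 and 17.8 in numbers 34 and 15 and 6.61 to 11.1 in the other 5. The groups overlapped, and their geometric means were 6.88, 9.16 and 11.3. Exact two-sided permutation tests of the log2 ratio gave p = 0.381 for DKD_Vehicle against NC, 0.425 between the DKD groups and 0.0727 for the libraries labelled DKD_shRNA against NC, or 0.425, 0.425 and 0.218 adjusted over the 3.

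The remaining members fell into relations of their own. Of 28 relations among the 7 members and the mean level of 24 proximal tubule markers, taken as deviations from group means over 17 libraries, 7 passed Benjamini-Hochberg adjustment by both Pearson and Spearman coefficients (permutation within groups), and 1 more, Slc37a4 with G6pc, by the Spearman coefficient only. Fbp1 went with Slc37a4 (r = 0.83, p = 0.000910, adjusted 0.0117; rho = 0.67, p = 0.0122, adjusted 0.0477; permutation tests) and with Khk (r = 0.79, p = 0.00125, adjusted 0.0117; rho = 0.78, p = 0.00480, adjusted 0.0421; permutation tests). Slc37a4 also went with Khk (r = 0.70, p = 0.00584, adjusted 0.0273; rho = 0.70, p = 0.00809, adjusted 0.0421; permutation tests). Libraries with much of these transcripts, such as the one labelled DKD_shRNA 32, and libraries with little, such as DKD_Vehicle 20 and the one labelled DKD_shRNA 29, were thus largely shared by this trio.

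Pck2 ran opposite to Khk (r = -0.85, p = 0.000730, adjusted 0.0117; rho = -0.81, p = 0.00101, adjusted 0.0283; permutation tests). Without the 2 libraries farthest from the median, r was 0.58 for Fbp1 with Slc37a4, 0.71 for Fbp1 with Khk, 0.52 for Slc37a4 with Khk and -0.76 for Pck2 with Khk. The relation of Fbp1 with Slc37a4 weakened most, and DKD_Vehicle 20 was among the libraries left out in each of these.

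The mean log2 level of the proximal tubule markers went with 3 members by both coefficients after adjustment. It went up with Pcx (r = 0.64, p = 0.00559, adjusted 0.0273; rho = 0.63, p = 0.00903, adjusted 0.0421; permutation tests) and with Khk (r = 0.64, p = 0.00916, adjusted 0.0366; rho = 0.61, p = 0.0136, adjusted 0.0477; permutation tests). It went opposite to Pck2 (r = -0.70, p = 0.00299, adjusted 0.0209; rho = -0.71, p = 0.00256, adjusted 0.0358; permutation tests). Without the 2 farthest libraries these were r = 0.48, 0.47 and -0.59. With Slc37a4 it had r = 0.65 (permutation p = 0.0163, adjusted 0.0511; rho = 0.54, adjusted 0.0821) and with Fbp1 r = 0.61 (permutation p = 0.0164, adjusted 0.0511; rho = 0.43, adjusted 0.205), coefficients of like size that missed the threshold. With Pck1 and G6pc the marker mean had r = 0.20 in both cases (permutation p = 0.479 and 0.516).

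**Figure D3:**
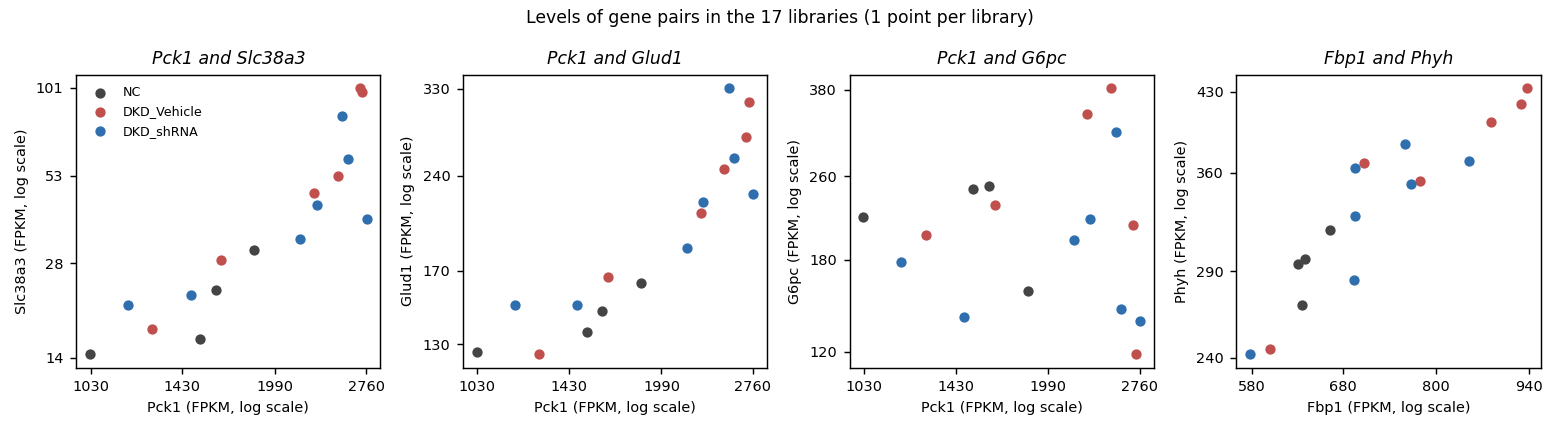
FPKM of gene pairs, both axes on log scales, with 1 point per library coloured by group. Pck1 and Slc38a3, and Pck1 and Glud1, lie along a line that all 3 groups share, Pck1 and G6pc form a cloud, and Fbp1 and Phyh lie along a line.

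The genes most like each member were looked up among 6392 genes with a mean of at least 5 FPKM. They were named after their values were seen and are a description without a test, and the points share libraries and groups. For Pck1 the first was Glud1, glutamate dehydrogenase (r = 0.90 over 17 libraries), and the next Slc38a3, the glutamine importer of the proximal tubule (r = 0.89). As deviations from group means both kept r = 0.87. Slc38a3 was at 97.8 and 100.9 FPKM in DKD_Vehicle 1 and 4, which had the most Pck1 of that group, and at 17.3 in DKD_Vehicle 20, which had the least. It was at 82.1 and 60.2 in the libraries labelled DKD_shRNA 13 and 15 and at 22.2 and 20.7 in numbers 29 and 31. Number 34 departed from this, with the highest Pck1 of all libraries but Slc38a3 at 38.7, and numbers 32 and 35 were at 42.7 and 33.4. In NC it ran from 14.4 in library 39, the lowest for Pck1 too, to 30.9 in library 41, the highest for Pck1.

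For Fbp1 the most alike gene was Phyh, a peroxisomal enzyme of branched fatty acid breakdown (r = 0.91, and 0.89 as deviations from group means). For Khk it was Akr1c21 (r = 0.95), for Slc37a4 Prdx3, a mitochondrial peroxidase (r = 0.85), for Pcx Tmem8 (r = 0.90) and for Pck2 Unc45a (r = 0.90). No gene came as close to G6pc, for which the highest coefficient was 0.66 (Srd5a1) and the lowest -0.76 (Rgs2).

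Among 88 tested genes that feed the pathway, share its steps or control it, 8 passed in DKD_Vehicle against NC, a share of 9.09% that is near the 7.49% over all genes tested. These lists, like the members, were drawn up with earlier results of these data known. Of all genes tested, 3.58% were called higher and 3.91% lower in this comparison. Of 7 genes of glutamine and ammonia handling, 0 rose and 2 fell. Oat, ornithine aminotransferase, fell by 0.38 (limma, adjusted p = 0.0255) and Slc7a7, a basolateral amino acid exchanger, fell by 0.69 (adjusted p = 0.0433). The call of Oat was lost without any 1 of the NC libraries or DKD_Vehicle 6, and that of Slc7a7 without any 1 of NC 37, 38 and 39, DKD_Vehicle 4, 6, 8, 19 and 20 and the libraries labelled DKD_shRNA 13, 15 and 34 (adjusted p up to 0.0826 and 0.136). Both calls were also lost without the filter on low values (adjusted p = 0.0512 and 0.102), when libraries were scaled to the same total (0.0518 and 0.0623) and with only the 2 groups compared in the limma fit (0.0621 and 0.0844).

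This list depended on DKD_Vehicle 20. Without it 3 of the 7 rose and 1 fell, where 4.16% of all genes were called higher and 3.52% lower: those that rose were Slc38a3 (65.5 ± 32.3 against 21.1 ± 7.54 FPKM, limma adjusted p = 0.0342), Glud1 (0.73 ± 0.22, adjusted p = 0.0495) and Gpt2, an alanine aminotransferase (0.61 ± 0.16, adjusted p = 0.0256), while Oat fell. With all libraries those 3 had adjusted p = 0.109, 0.155 and 0.0832. Glud1 was at 126.5 to 162.5 FPKM in NC, at 165.9 to 314 in the other 5 DKD_Vehicle libraries and at 125.3 in library 20. For Glud1, library 20 was the only DKD_Vehicle library not above every NC library. Leaving it out therefore fixed in advance that these groups would not overlap, which adds nothing to the call. For Slc38a3 and Gpt2 the groups still overlapped without it.

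Of 14 enzymes of the reversible steps shared with glycolysis, 1 rose and 0 fell, with a median difference of 0.09 beside 0.01 over all genes. The one was Eno1, enolase, from 181.5 ± 13.4 to 276 ± 41.5 FPKM (0.59 ± 0.11, limma adjusted p = 0.00293). Without DKD_Vehicle 20, Pgam1, a phosphoglycerate mutase, passed as well (0.30, adjusted p = 0.0143, against 0.0763 with all libraries).

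Of 9 tested enzymes of the one-way glycolytic steps, which run against the members, 1 rose. It was Pklr, the pyruvate kinase of liver and proximal tubule, from 11.8 ± 1.44 to 26.8 ± 6.35 FPKM (1.09 ± 0.19, limma adjusted p = 0.00288). The lowest DKD_Vehicle library, number 20 at 17.5, was above the highest NC library at 13.5. Eno1, Pklr and Slc16a1 kept their calls whichever single library was left out.

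Of 13 genes of lactate and carboxylate entry, 1 rose and 1 fell. Slc16a1, a monocarboxylate transporter, rose from 7.96 ± 1.56 to 19.1 ± 2.77 FPKM (1.17 ± 0.18, limma adjusted p = 0.00117), with no overlap between the groups. Slc16a7, another monocarboxylate transporter, fell by 0.51 (adjusted p = 0.0359), a call lost without any 1 of the NC libraries, DKD_Vehicle 4 or DKD_Vehicle 20 (adjusted p up to 0.0993). Of 5 genes of glycerol entry only Aqp3, a water and glycerol channel of the collecting duct, fell, by 0.52 (adjusted p = 0.0285), a call lost without NC 37, NC 39, DKD_Vehicle 4 or DKD_Vehicle 6 (adjusted p up to 0.118). Without the filter on low values Slc16a7 and Aqp3 also missed the threshold (limma, adjusted p = 0.0869 and 0.0675).

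Of 22 tested regulators 1 rose, Cebpa, a transcription factor of liver and fat that acts on Pck1 and G6pc in the liver (0.73 ± 0.17, limma adjusted p = 0.0152, from 23.1 ± 1.57 to 39.9 ± 10.2 FPKM). Its call was lost without NC 39 (adjusted p = 0.0607), and DKD_Vehicle 20, with its fat cell markers, was at 46.2 FPKM. Without that library it was 0.68 (adjusted p = 0.0270). None of 6 genes of fructose and sorbitol handling and none of 10 of pyruvate dehydrogenase control passed, the smallest p being those of Tkfc, triokinase (0.31, adjusted p = 0.178), and of Pdk3 (-0.33, adjusted p = 0.144). Tkfc passed without DKD_Vehicle 20 (0.41, adjusted p = 0.0384).

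**Figure D4:**
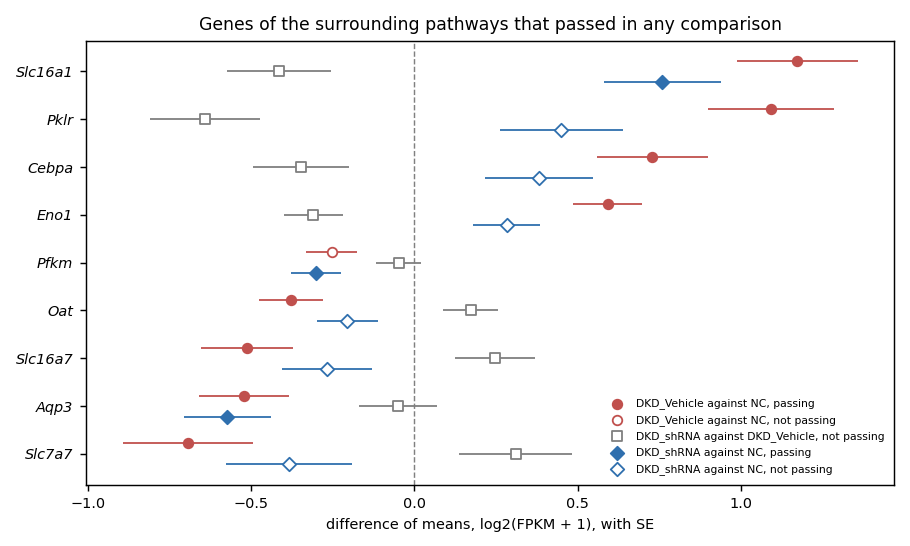
Differences of group means on the log2(FPKM + 1) scale (horizontal axis) with SE for the 9 pathway genes that passed in any comparison. Filled symbols passed. In DKD_Vehicle against NC, Slc16a1 (1.17) and Pklr (1.09) lie farthest right, and in DKD_shRNA against DKD_Vehicle no gene passed.

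In the libraries labelled DKD_shRNA against DKD_Vehicle no gene of these lists passed. The smallest p-values were those of Pklr (-0.64 ± 0.17, limma adjusted p = 0.284, 16.9 ± 4.35 against 26.8 ± 6.35 FPKM), Aqp7, a glycerol channel (-0.21 ± 0.057, adjusted p = 0.302), and Eno1 (-0.31 ± 0.091, adjusted p = 0.358). Gapdh, whose reads can be shared with near-identical pseudogenes (-1.14 ± 0.69, adjusted p = 0.765), and Akr1b3, aldose reductase (-0.94 ± 0.50, adjusted p = 0.713), differed most in size, and their SD in DKD_Vehicle exceeded their mean. In the libraries labelled DKD_shRNA against NC, 1 gene of the lists rose and 2 fell, with background shares of 1.42% called higher and 0.595% called lower. Slc16a1 rose by 0.76 ± 0.18 (adjusted p = 0.0348), Aqp3 fell by 0.57 (adjusted p = 0.0328), and Pfkm, a phosphofructokinase subunit, fell by 0.30 (adjusted p = 0.0497). The call of Slc16a1 was lost without any 1 of NC 37, 38 and 39 and those labelled DKD_shRNA 15, 31 and 35 (adjusted p up to 0.166). That of Aqp3 was lost without any 1 of the NC libraries and those labelled DKD_shRNA 13 and 35 (up to 0.160). That of Pfkm was lost without any 1 of the NC libraries, DKD_Vehicle 6, 8 and 19 and those labelled DKD_shRNA 13, 15, 29, 31, 34 and 35 (up to 0.172). Each of the 3 also missed the threshold without the filter on low values (limma, adjusted p = 0.0921, 0.0797 and 0.0855). The same held with the mean level of the proximal tubule markers as a covariate (limma, adjusted p = 0.304, 0.245 and 0.355). Slc16a1 did so too when scaled to the same total (0.0745), with only the 2 groups compared (0.0569) and with voom (0.0521), Aqp3 with only the 2 groups compared (0.0533) and Pfkm with a pseudocount of 0.1 (0.0505). Slc16a1 was also lost without both DKD_Vehicle 20 and the library labelled DKD_shRNA 31.

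Markers of the proximal tubule, whose cells make glucose in the kidney, moved in DKD_Vehicle against NC. Of 24 markers 7 fell and 1 rose, where 3.91% of all genes were called lower and 3.58% higher. Among those that fell were Cyp2e1 (by 1.12, limma adjusted p = 0.00110) and Miox (by 0.79, adjusted p = 0.00102). The calls of Cyp2e1, Miox, Slc27a2 and Slc3a1 were lost only with the mean of these markers as a covariate. Those of Slc5a2, Slc22a8 and Cubn were lost in 17, 12 and 10 of 28 alternatives (limma, adjusted p up to 0.346, 0.639 and 0.700). Only Slc2a2 rose, the basolateral glucose transporter through which new glucose leaves the cell (0.36 ± 0.11, adjusted p = 0.0444), a call lost without any 1 of the NC libraries, DKD_Vehicle 1, 4, 6, 8 and 19 and the library labelled DKD_shRNA 15 (adjusted p up to 0.120). The markers summed to 34802 to 45895 FPKM in NC, 17045 to 37008 in DKD_Vehicle and 23004 to 46451 in the libraries labelled DKD_shRNA. Most of these sums was 1 gene, Kap, at 25260 to 37684, 11733 to 29001 and 16825 to 38127 FPKM in the 3 groups. The mean log2 level over the list was 7.52 to 7.83 in NC, 7.09 to 7.55 in DKD_Vehicle and 7.33 to 7.63 in the libraries labelled DKD_shRNA, with none of the markers at 0. With that mean as a covariate, DKD_Vehicle differed from NC by 0.09 for Pcx and by -0.02 for Pck2, signs opposite to those without it. The differences of the other 5 were larger than without it, at 0.73 for Pck1, 0.59 for Fbp1, 0.46 for Khk, 0.34 for G6pc and 0.32 for Slc37a4. With it 0 of 7 members passed, the smallest adjusted p being 0.110 for Fbp1 (limma). None of the 8 pathway genes called above passed with it either, although most of their differences stayed about as large: Eno1 was at 0.63 (limma, adjusted p = 0.0926), Pklr at 1.13 (adjusted p = 0.111), Oat at -0.49 (0.144), Slc7a7 at -0.72 (0.272) and Cebpa at 0.68 (0.242). Those of Slc16a1 (0.84, adjusted p = 0.156), Slc16a7 (-0.34, 0.425) and Aqp3 (-0.42, 0.334) were smaller than without it. NC and DKD_Vehicle hardly overlapped in the marker mean, and the markers include genes called here, such as Cyp2e1 and Miox. The covariate can therefore take up part of the difference between the groups, and these fits cannot part tubule content from it. The part of tubule content in the members' values was not tested.

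Liver cells also make these transcripts, and Alb, the transcript that defines hepatocytes, was at 2.25 to 4.76 FPKM in all libraries. Ttr, of the same list but also made in other tissues, was at 63.8 to 73.7 FPKM in NC, 75.5 to 197.6 in DKD_Vehicle and 162.6 to 305 in the libraries labelled DKD_shRNA. Its rise in the libraries labelled DKD_shRNA against NC passed (limma, adjusted p = 0.000831) and was kept in all 28 alternatives. It was the 1 call among 6 tested genes of that list, where 1.42% of all genes were called higher. Thick ascending limb markers summed to 1100 to 1529, 425 to 1109 and 913 to 1263 FPKM, and macrophage markers to 179.8 to 217, 209 to 514 and 281 to 446 FPKM in the 3 groups. Of the thick ascending limb sums, Umod alone held 704 to 1007, 283 to 749 and 602 to 887 FPKM. Of the macrophage sums, Cd74 alone held 107.5 to 144.5, 140.1 to 345.6 and 185.6 to 279.4 FPKM. In DKD_Vehicle against NC, 3 of the 7 thick ascending limb markers fell, and 0 of 7 were above 0. The calls of Umod, Slc12a1 and Egf were lost in 9, 10 and 1 of 28 alternatives. Of the 8 macrophage markers 3 rose in that comparison and 1, Csf1r, fell (limma, adjusted p = 0.00103). The shares over all genes were 3.58% higher and 3.91% lower. The part of these cell types in the members' values was not tested.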

How the data were processed

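Trizol RNA went into SMARTer mRNA-Seq libraries (per the labels' protocols). The authors deposited FPKM for every gene in every library, beside each gene's length and position (per the file headers). The submitters' processing notes list GRCm38 and mm10. Aligner, counter, annotation release and strand setting: not given in the sources used here. FPKM times gene length gave whole multiples of 1 step per library for 100% of values up to 200 steps (tolerance 0.05 of a step), and the reads recovered this way give the depth. Replicate pairs differed by 6.61 to 68.9 times counting noise (chi-square divided by its degrees of freedom, 42 pairs), so no pair looked like copies of 1 library, which does not show that they are separate mice. The table's last line was incomplete and was left out.

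Genes with an FPKM of at least 1 in at least 4 libraries (13279) were tested on log2(FPKM + 1), a scale that understates changes of low genes, with limma 3.58.1 (limma-trend, R 4.3.3), 1 mean per group over all 17 libraries, two-sided, Benjamini-Hochberg over all of them, threshold 0.05. Gcgr and the Pck1 to G6pc ratio had exact permutation tests. Correlations used 100000 permutations within groups. All 7 members are named, and of each pathway list up to 4 passing genes, or up to 2 with the smallest p where none passed. Some genes of the lists are not reported here. Members and lists were chosen with earlier results of these data known. Alternatives covered pseudocount, filter, scaling, weights, voom, the groups fitted, a proximal tubule covariate and each library left out. The length of the longest coding transcript (GENCODE M21), as an alternative for levels, was chosen after seeing the data. The fit was tested on simulated data, with changes added to genes with a mean of at least 100 FPKM. Of 1.25-fold changes it recovered 0% in DKD_Vehicle against NC, 8.54% between the DKD groups and 1.16% in DKD_shRNA against NC. Of 1.5-fold changes it recovered 54.4%, 70.8% and 54.7%, and of 2-fold changes 88.9%, 91.9% and 90.7%. Each run changed 162 to 173 genes and gave 0 to 12 false calls. The rates hold for that share of changed genes and average over genes whose median within-group SD was 0.21. They do not carry over to Pck1 and G6pc, with SD of 0.44 and 0.48, or to Pck2, with a mean of 3.08 FPKM. Promoter sequences are from RefSeq GRCm38.p6.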

Additional observations from a re-analysis of the deposited data

How the results depend on the processing

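No paired analysis was possible because the groups share no replicate numbers. The members' 21 differences had 27 or 28 alternatives each, and only Fbp1 in DKD_Vehicle against NC crossed the threshold: 1 member passed there with array weights, with voom on recovered reads, without DKD_Vehicle 20, and without both DKD_Vehicle 20 and DKD_shRNA 31. Leaving out single libraries gave 0 to 1 members there and 0 in the other comparisons. Signs reversed for some differences, the largest of which, before any alternative, were 0.20 for Pck2 and -0.17 for Pcx in DKD_Vehicle against NC. With the proximal tubule covariate, Pcx was 0.086 and Pck2 -0.020 in DKD_Vehicle against NC, Pcx -0.015 in DKD_shRNA against DKD_Vehicle, and Pcx 0.071 and Khk 0.279 in DKD_shRNA against NC. Scaled to the same total, Pck2 was -0.031 in DKD_shRNA against DKD_Vehicle (-0.022 with voom) and Slc37a4 -0.030 in DKD_shRNA against NC. With single libraries left out, DKD_Vehicle against NC ran from -0.039 to 0.299 for G6pc and from -0.019 to 0.129 for Khk. DKD_shRNA against DKD_Vehicle ran from -0.177 to 0.1005 for Pck1, from -0.031 to 0.054 for Pck2 and from -0.108 to 0.013 for Slc37a4. DKD_shRNA against NC ran from -0.013 to 0.066 for Slc37a4 and from -0.0996 to 0.014 for Khk. The causes were not tested.

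The number of genes passing in DKD_Vehicle against NC, 994, became 597 without a filter on low values, 2087 with array weights and 52 with the proximal tubule covariate, and 456 to 1264 with single libraries left out. The lowest counts came without NC 39 (456), NC 38 (477), NC 37 (487) and DKD_Vehicle 4 (659). In DKD_shRNA against NC, 268 became 155 without a filter, 154 at a mean FPKM of at least 5, 438 with only the 2 groups compared, 1070 with array weights and 43 with the covariate, and 103 to 348 with single libraries left out (103, 105 and 131 without NC 39, 38 and 37, 165 and 170 without DKD_shRNA 13 and 35). Between the DKD groups, 0 became 1 at a mean FPKM of at least 5, with a pseudocount of 0.1 and with only the 2 groups compared, and 0 to 3 with single libraries left out. Gcgr kept its direction and its side of the threshold in all 14 alternatives. With the longest coding transcript as length, NC levels became 234 FPKM for Pcx, 1937 for Pck1, 737 for Fbp1, 159 for Slc37a4 and 465 for Khk, and the order of the members stayed the same apart from Pcx, which then exceeded G6pc (217). Of the members, their relatives and Gcgr, G6pc2 (0 to 6 reads per library), Fbp2 (159 to 355), Gcgr itself (291 to 1004) and Pck2 (302 to 582) rest on the fewest reads.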

Other observations

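Pcx went across libraries with Dbp, a transcription factor that follows the daily clock (r = 0.90 over 17 libraries), and opposite to Tuba1a, a tubulin of injured and growing cells (r = -0.93). Fbp1 went opposite to Col4a4, a collagen of the glomerular basement membrane (r = -0.88), and Khk opposite to Iqgap1, a scaffold of the cell cortex (r = -0.87). Pck1 went opposite to Tln2, a talin (r = -0.87), and Pck2 opposite to Slc22a30, a transporter of the late proximal tubule (r = -0.91). These genes stood at the ends of rankings of 6392 genes and were named after their values were seen, so they describe these libraries and were not tested.

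Slc5a10, a sugar transporter of the late proximal tubule that takes up fructose and mannose, was higher in DKD_Vehicle (241 ± 48.4 FPKM, n = 6) than in NC (102.1 ± 16.8, n = 4), by 1.22 ± 0.18 on the log2 scale (limma, adjusted p = 0.000762). Slc7a13, a transporter of the same segment, fell by 1.16 (adjusted p = 0.0193), from 439 ± 53.8 to 208 ± 85.6 FPKM. In the libraries labelled DKD_shRNA, Slc5a10 was at 178.0 ± 32.01 FPKM (n = 7), 0.79 ± 0.17 above NC (adjusted p = 0.0249), and its difference from DKD_Vehicle was -0.43 ± 0.16 (adjusted p = 0.533). Both belong to a list of 5 markers of that segment, of which 1 rose and 1 fell in DKD_Vehicle, where 3.58% of all genes were called higher and 3.91% lower. Of the 5 only Slc5a10 was above 0 against NC in either DKD group, and the list's median was -0.48 in each. The call of Slc5a10 in DKD_Vehicle held in all 28 alternatives (adjusted p up to 0.0119). That of Slc7a13 was lost without NC 38 (adjusted p = 0.0671), with the proximal tubule covariate and when low genes were not filtered out, and that of Slc5a10 in the libraries labelled DKD_shRNA without any 1 of NC 37, 38 and 39 and numbers 13 and 35, and under both of those settings (adjusted p up to 0.120).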
